A study of Mesocricetus auratus with 64 samples.

Results

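The proteasome subunit genes described here are the 43 genes whose symbol is Psma, Psmb, Psmc, Psmd or Psme followed by digits, out of 32303 genes in each long RNA count table of a golden hamster study. They were picked by name, and this set was chosen with earlier results of these data known. By role they comprise 7 constitutive genes of the alpha ring, the germ cell alpha subunit Psma8, 7 constitutive genes of the beta ring, the immune beta subunits Psmb8, Psmb9 and Psmb10, the thymus beta subunit Psmb11, 6 ATPases of the base (Psmc1 to Psmc6), 3 other base subunits (Psmd1, Psmd2 and Psmd4), 8 lid subunits, 3 chaperones of base assembly (Psmd5, Psmd9 and Psmd10) and 4 activators (Psme1 to Psme4).

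The proteasome degrades proteins that carry ubiquitin. Its core is a stack of alpha and beta rings with the proteolytic sites inside the beta rings, and its regulatory cap has a base, whose ATPases unfold the substrate, and a lid, which removes ubiquitin. In mice and humans the active beta subunits Psmb5, Psmb6 and Psmb7 can be replaced by the interferon-inducible Psmb8, Psmb9 and Psmb10, and in mouse spermatocytes Psma8 takes the place of Psma7. Oocytes and early embryos rely on stored maternal RNA and protein, which are degraded as the embryo begins to transcribe its own genome.

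The study profiled Syrian golden hamsters (Mesocricetus auratus) that were wild type (WT) or carried a knockout of Pld6 (KO), a gene of the piRNA pathway. The groups are testis at 3 weeks of age (21 d.p.p.; 3 WT and 3 KO libraries), GV stage and MII stage oocytes, and embryos labelled 10PEA, 1C-20PEA, 33PEA and 54PEA, each with 2 WT and 2 KO libraries. A further group of 2 KO MII oocyte libraries carries the unexplained label D321. The labels spell out neither PEA nor the knockout allele, and they call the embryos WT or Pld6 KO without naming the genotype of either parent. Single oocytes or embryos, with ERCC spike-in RNA added, gave the oocyte and embryo libraries; for testis, ribosomal RNA was removed from total RNA. No animal is named for any library, so p-values measure the spread between these libraries, which may be technical in part.

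Gene counts ranged from 31572737 to 34257661 in testis and from 1544198 to 11031837 in oocytes and embryos. Pld6 itself was at 43.6, 37.7 and 51.2 counts per 1000000 gene counts (CPM) in WT testis and 3.24, 2.46 and 4.94 CPM in KO testis, but it was still counted in KO GV oocytes (42.0 and 22.7 CPM), where the libraries overlapped those of WT (36.2 and 31.9 CPM). It was at 0 in both KO-33PEA libraries, against 5.51 and 32.6 CPM in WT-33PEA, and at 0 in all 4 libraries of 54PEA; the deleted part of the gene is not given in the labels, so the counts do not check the allele. The 2 KO-54PEA libraries stand apart: 55.5% and 77.8% of their counts were ERCC sequence, against 4.42% to 5.23% in WT-54PEA, and 5381 and 4403 genes were counted in them. Results of other comparisons that they enter are given with and without them; the KO change at 54PEA rests on them and has no value without both. Spermatocyte markers summed to 2352 to 3339 CPM in WT testis and 24.3 to 47.6 CPM in KO testis, and 9 of 9 oocyte markers were counted in WT-GV libraries.

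The level of a member is given in CPM of the gene counts. It is compared between libraries and never between genes, because transcript lengths were not available. Changes are log2 ratios, tested with edgeR (quasi-likelihood F test, p-values adjusted by Benjamini-Hochberg over all genes tested). A member is called when its adjusted p is under 0.05. The standard error (SE) given is the size of the log2 change divided by the square root of its F value. It is approximate, and where a group had 0 counts the fitted change and its SE do not measure a finite ratio. Of the 43 members, 42 passed the filter on low counts in testis (all except Psmb11) and 41 in oocytes and embryos (all except Psmb8 and Psmb11).

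In 3-week testis the largest difference was in the germ cell alpha subunit. Psma8 was at 92.7, 85.4 and 110.3 CPM in the WT libraries and at 1.41, 0.395 and 0.760 CPM in the KO libraries. The groups did not overlap, and all 3 KO libraries were low. Psma8 fell by 6.70 on the log2 scale (SE 0.41, adjusted p = 3.15e-06), and its call held in every alternative run. Its constitutive counterpart Psma7 was at 180.3, 203.2 and 164.4 CPM in WT and 188.4, 228.8 and 221.0 CPM in KO testis, with overlapping groups and no call (log2 change 0.36, SE 0.18, adjusted p = 0.115). Psma7 and Psma8 are related genes, and how reads that match several genes were counted is not given in the sources used here.

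**Figure D1:**
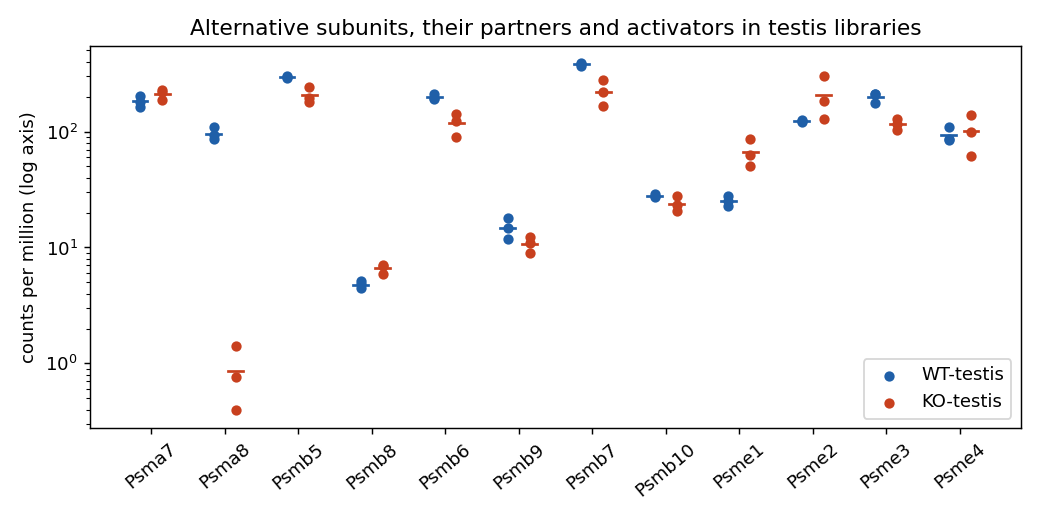
Level in CPM (log axis) of alternative subunits, their constitutive counterparts and the activators in the 3 WT (blue) and 3 KO (red) testis libraries; points are libraries and bars are group means. Psma8 lies at 85.4 to 110.3 CPM in WT and 0.395 to 1.41 CPM in KO, while Psme1 is higher in all 3 KO libraries.

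Across all members, 17 were called in KO testis, 3 higher and 14 lower, against 58.0% of all 18024 genes tested (27.9% higher and 30.2% lower). The share called among members was thus below that of all genes in total and, among lower calls, close to it. In the constitutive core rings 3 of 14 genes fell and none rose, in the base 4 of 9 fell, and in the lid 5 of 8 fell. The median log2 change was -0.28 in the core rings, -0.28 in the base and -0.61 in the lid, beside 0.03 over all genes. Within the base it was 0.02 in the ATPases and -0.72 in the other base subunits. The median over the 42 members tested was -0.28 and stayed negative under every scaling run; library size scaling moved it to -0.41 and that of all genes to -0.10. Of the members, 22 had all KO libraries below all WT libraries (37.7% of all genes did) and 5 had them above (27.5%).

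Psmd8, a lid subunit, had the largest fall after Psma8. It was at 481.5, 422.5 and 498.4 CPM in WT and 150.3, 153.9 and 87.0 CPM in KO testis, with no overlap, and fell by 1.72 on the log2 scale (SE 0.24, adjusted p = 0.000284). Psmd6, another lid subunit, was at 144.9, 149.3 and 170.2 CPM in WT and at 76.5, 80.6 and 80.1 CPM in KO, and fell by 0.84 (SE 0.18, adjusted p = 0.00293). The lid genes Psmd13, Psmd3 and Psmd11 also fell (log2 -0.79, -0.62 and -0.60), whereas Psmd7, Psmd12 and Psmd14, the lid's deubiquitinase, were not called. Without WT replicate 1 or 3 the calls of Psmd13, Psmd3 and Psmd11 were lost, and without WT replicate 2 those of Psmd3 and Psmd11. The call of Psmd13 was also lost without KO replicate 1 or 2, and that of Psmd3 without KO replicate 1 or 3. Psmd8 and Psmd6 stayed called. By CPM, 7 of the 8 lid genes had every KO library below every WT library, Psmd12 among them, whose log2 change after scaling was 0.05.

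In the core, Psma5, an alpha ring subunit, was at 99.4, 98.1 and 99.2 CPM in WT and 52.9, 50.3 and 19.2 CPM in KO testis. The KO libraries were all lower and more scattered, and Psma5 fell by 1.16 on the log2 scale (SE 0.33, adjusted p = 0.0128). Of the active beta subunits, Psmb6 (caspase-like activity) and Psmb7 (trypsin-like activity) fell by 0.62 and 0.65, and Psmb5 (chymotrypsin-like activity) was not called (log2 -0.39, SE 0.19, adjusted p = 0.106). In the base, the scaffold subunits Psmd1 and Psmd2 fell by 0.72 and 0.74, and the ATPases Psmc3 and Psmc2 by 0.67 and 0.44; the other 4 ATPases and the ubiquitin receptor Psmd4 were not called. The calls of Psmb6, Psmb7 and Psmc2 were lost without any 1 of the WT libraries, and that of Psmc3 without WT replicate 1 or 3. Those of Psmb7 and Psmc2 were also lost without KO replicate 1 or 2, and that of Psmc2 with a replicate block or without the filter on low counts.

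None of the immune beta subunits was called. Psmb8, the counterpart of Psmb5, was at 4.81, 5.10 and 4.44 CPM in WT and 6.94, 5.93 and 7.10 CPM in KO testis (log2 change 0.61, SE 0.26, adjusted p = 0.0740). Psmb9, the counterpart of Psmb6, was at 11.9, 14.8 and 17.8 CPM against 10.9, 8.94 and 12.3 CPM (log2 -0.35, SE 0.27, adjusted p = 0.289). Psmb10, the counterpart of Psmb7, was at 28.7, 27.4 and 27.9 CPM against 20.6, 27.9 and 23.1 CPM (log2 -0.10, SE 0.22, adjusted p = 0.720). The KO libraries were all above the WT libraries for Psmb8 and overlapped them for Psmb9 and Psmb10. Psmb11, the thymus subunit, had 23 counts in the 3 WT and 7 counts in the 3 KO libraries together.

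The higher calls were among activators and chaperones. Psme1, which with Psme2 forms the interferon-inducible activator cap, was at 25.3, 27.7 and 22.9 CPM in WT and 50.2, 63.3 and 85.9 CPM in KO testis. All KO libraries were higher, and Psme1 rose by 1.53 on the log2 scale (SE 0.25, adjusted p = 0.000644). Psme2 was at 126.1, 124.2 and 120.4 CPM in WT and 127.7, 183.8 and 303.6 CPM in KO, where the lowest KO library was just above the highest WT library (log2 0.87, SE 0.30, adjusted p = 0.0316). Psmd10, also known as gankyrin, was at 30.2, 35.0 and 33.7 CPM against 57.0, 47.1 and 37.3 CPM (log2 0.64, SE 0.20, adjusted p = 0.0220). The calls of Psme2 and Psmd10 were lost under 6 and 7 of the alternatives, among them every fit without 1 of the WT libraries. Psme3, which forms the nuclear cap, fell instead, from 211.7, 208.7 and 177.3 to 115.4, 128.0 and 103.6 CPM (log2 -0.65, SE 0.17, adjusted p = 0.0100), a call lost without WT replicate 1. Psme4, a cap known in mice for its role in spermatids, was not called (log2 0.21, SE 0.27, adjusted p = 0.528).

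**Figure D2:**
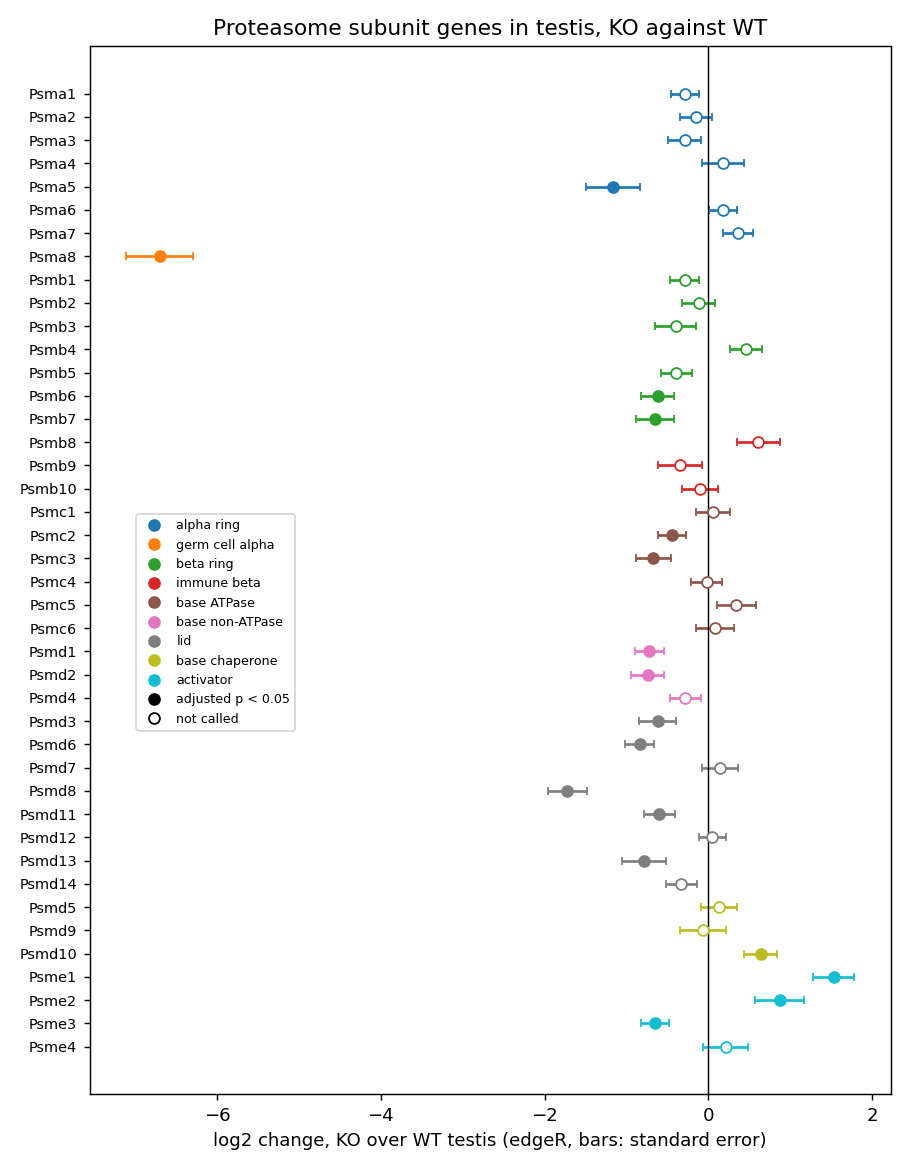
Log2 change of 42 subunit genes in KO over WT testis, grouped by class, with approximate standard errors derived from the F values. Filled points have an adjusted p under 0.05 in edgeR's quasi-likelihood test. Psma8 lies apart at -6.70, and 5 of 8 lid genes are called lower, while Psme1, Psme2 and Psmd10 lie to the right.

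Cell type markers moved with these results. Sertoli cell markers summed to 7146 to 7981 CPM in WT and 14210 to 21660 CPM in KO testis, and Leydig cell markers to 424.1 to 494.1 against 2539 to 2963 CPM. Macrophage markers summed to 44.2 to 66.1 against 91.8 to 131.3 CPM, with 7 of 11 called higher, beside 27.9% of all genes. Endothelial markers summed to 27.0 to 40.4 CPM in WT and 62.1 to 101.4 CPM in KO. Lymphocyte markers were lower in KO, 7.94 to 11.6 against 1.25 to 3.74 CPM. All 10 spermatocyte markers were called lower, beside 30.2% of all genes, and none of them was at 0 in KO. Spermatogonia markers summed to 1110.0 to 1248 CPM in WT and 297.9 to 350.1 CPM in KO. Of 8 spermatid markers, the 5 that were counted summed to 283.9 to 473.8 CPM in WT and 1.05 to 2.36 CPM in KO. The part of all these cell types in the changes of the subunit genes was not tested. In whole tissue fewer cells of a type and less RNA per cell cannot be told apart. Leaving out 1 WT library left 7 (without replicate 1), 10 (without replicate 2) and 8 (without replicate 3) called members.

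Beyond the members, 39 of 43 related genes were in the tables, and in KO testis 9 were called higher and 12 lower, beside 27.9% and 30.2% of all genes, so that the list was called about as often as genes at large. The assembly factors of the core Psmg2, Psmg4 and Psmg1 fell (log2 -1.44, -1.28 and -0.67). Nfe2l1, a transcription factor that induces subunit genes when the proteasome is impaired, rose from 212.9 ± 23.6 to 306.0 ± 35.2 CPM (SD, n = 3; log2 0.65, SE 0.17, adjusted p = 0.00928), and the ubiquitin receptor Adrm1 rose by 0.85. Akirin2, which carries proteasomes into the nucleus in human cells, fell by 0.68. Of the antigen presentation and interferon genes, B2m rose (log2 0.82) and Irf8 fell (log2 -2.44), and the other 6 tested were not called.

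In WT oocytes and embryos the summed level of the 43 genes was 10480 and 11320 CPM at GV, 3925 and 4113 CPM at MII, 5428 and 4740 CPM at 10PEA, 6356 and 7925 CPM at 1C-20PEA, 7733 and 10620 CPM at 33PEA and 18440 and 21650 CPM at 54PEA. The 54PEA libraries were thus above GV by log2 0.88 in CPM, but per ERCC count the same sum was lower at 54PEA than at GV by log2 -2.86, with libraries at 0.334 and 0.468 against 2.71 and 3.13 subunit counts per ERCC count. The sum at MII was below that at GV on both scales (log2 -1.44 in CPM and -3.31 per ERCC count). Per ERCC count the WT libraries were at 0.352 and 0.122 at 10PEA, 0.366 and 0.0934 at 1C-20PEA and 0.0565 and 0.0887 at 33PEA. From 1C-20PEA to 33PEA the mean sum thus went from 7141 to 9176 CPM, with overlapping libraries, but from 0.230 to 0.0726 per ERCC count.

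**Figure D3:**
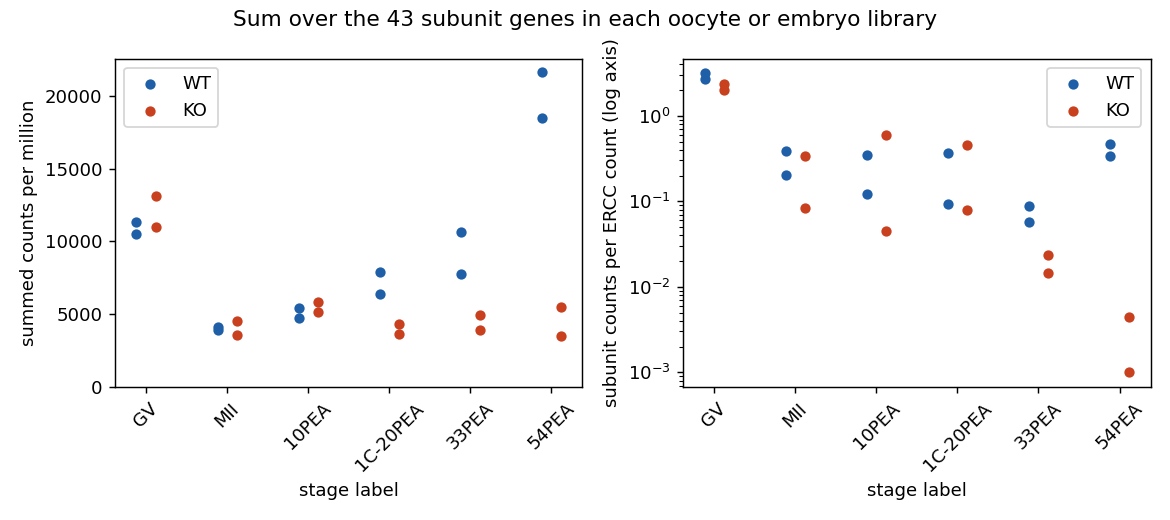
Sum over the 43 subunit genes in each WT (blue) and KO (red) oocyte or embryo library, as CPM (left) and per ERCC count (right, log axis). The WT sums reach 18440 and 21650 CPM at 54PEA, where the KO libraries lie at 5508 and 3514 CPM, and per ERCC count the GV libraries are the highest.

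At the step from GV to MII most members were lower, but single tests called few. Of the members, 29 had both WT-MII libraries below both WT-GV libraries, beside 46.5% of all genes, and 4 had them above (15.9% of all genes). All 7 beta ring genes and 5 of 6 ATPases were among those 29. Only Psmc4, an ATPase of the base, was called, beside 0.202% of all genes, all of these lower. It was at 15.7 and 24.6 CPM at GV and had 0 counts in both MII libraries, which is at least 134.3-fold lower (fitted log2 change -10.27, SE 1.86, adjusted p = 0.0255). The call of Psmc4 was lost with ERCC scaling (adjusted p = 0.0999) and without either WT-MII library (adjusted p 0.979 and 0.868). The median log2 change of the members was -1.77 against -0.38 over all genes. It was -2.13 with Psma8 and Psmb9, at 0 counts at both stages, left out and members at 0 counts at MII alone set to their bound. DESeq2 called 14 members lower at this step, beside 1025 of 23521 genes in either direction. Without both KO-54PEA libraries, whose spread enters the shared fit, edgeR called 11 members, beside 298 of 17058 genes.

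Between MII and 10PEA no member was called, nor any other gene of the 17294 tested, and the same held between 10PEA and 1C-20PEA; at an unadjusted p under 0.05 there were 3 and 1 members and 477 and 544 genes in all. DESeq2 called 1 member at the first of these steps and 0 at the second, beside 165 and 161 of 23521 genes. The members' median from 10PEA to 1C-20PEA was 0.72 against 0.00 over all genes, and 0.18 against -0.03 with ERCC scaling. The summed level per ERCC count overlapped, at 0.352 and 0.122 and then 0.366 and 0.0934. By CPM, 7 members had both WT-1C-20PEA libraries below both WT-10PEA libraries, beside 19.0% of all genes. The other direction held for 24 members, beside 23.7% of all genes. Psmb5 was among them, at 285.5 and 186.2 CPM and then 529.8 and 764.0 CPM (log2 change 1.41, SE 1.29, adjusted p = 1.0), as was Psme1, at 144.4 and 116.5 CPM and then 441.6 and 803.2 CPM (log2 2.21, SE 1.21, adjusted p = 1.0). The spread in the shared fit of all 26 oocyte and embryo libraries, KO-54PEA included, was wide, with a common dispersion of 1.072 against 0.0806 in testis.

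At the step from 1C-20PEA to 33PEA members moved in both directions, and the shares that were lower were close to those of all genes. In the WT libraries 5 members rose and 6 fell, beside 4.96% and 15.7% of all genes (20.6% in either direction). Both WT-33PEA libraries were above both WT-1C-20PEA libraries for 15 members and below them for 16, beside 21.4% and 38.7% of all genes. The members' median was -0.51 and that of all genes -1.23; the members' median was -2.31 with ERCC scaling but 0.04 without the filter on low counts and 0.19 without both KO-54PEA libraries. ERCC scaling moved the median of all genes to -3.29 and left 1 member called higher and 6 lower, beside 3328 of 17294 genes in either direction.

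The ATPases Psmc6 and Psmc4 were among those that rose. Psmc6 had 0.948 and 0 CPM in the 1C-20PEA libraries, and 988.6 and 2500 CPM at 33PEA, a change of log2 11.58 (SE 2.75, adjusted p = 0.00699). Psmc4 was at 9.13 and 9.69 CPM and then 801.1 and 1280 CPM (log2 6.61, SE 1.35, adjusted p = 0.00279). In both genes the stages were far apart. The immune beta subunit Psmb9 had no count in the 10PEA and 1C-20PEA WT libraries and was at 54.2 and 85.5 CPM at 33PEA, at least 378.8-fold higher (fitted log2 11.81, SE 3.84, adjusted p = 0.0439); this call was lost with ERCC scaling and without any 1 of the 4 libraries compared. At 54PEA it was at 7.24 and 0 CPM. Psma3 of the alpha ring (log2 3.41) and Psmb1 of the beta ring (log2 4.22) rose as well.

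Among those that fell at this step, Psme1 went from 441.6 and 803.2 CPM to 14.8 and 12.3 CPM (log2 -5.67, SE 1.41, adjusted p = 0.00892). Psma6 of the alpha ring went from 249.7 and 476.0 CPM to 22.4 and 0.472 CPM (log2 -5.07, SE 1.15, adjusted p = 0.00503). For both genes the later stage was lower in each library. The nuclear activator Psme3, the base chaperone Psmd9 and the core subunits Psmb2 and Psma4 fell too (log2 -4.57, -4.41, -3.02 and -2.17). The calls of Psme1, Psme3, Psmd9, Psmb2 and Psma4 were lost without either WT-33PEA library, and those of Psma3, Psmb1 and Psmc4 with ERCC scaling. Oocyte markers summed to 9292 to 12780 CPM at 1C-20PEA and 1116 to 1141 CPM at 33PEA; their part in the changes was not tested. Without either WT-33PEA library 5 members were called, without the second WT-1C-20PEA library 6, and without either KO-54PEA library, whose spread enters the shared fit, 17.

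At the last WT step, from 33PEA to 54PEA, 7 members rose and 1 fell, beside 2.47% and 4.61% of all genes (7.08% in either direction). Both WT-54PEA libraries were above both WT-33PEA libraries for 31 members and below them for 4, beside 28.0% and 18.3% of all genes. The 31 included 14 of 14 constitutive core genes, 7 of 9 base genes and 7 of 8 lid genes. The core rings had a median log2 change of 3.12, the base 1.13 and the lid 1.66, against 0.00 over all genes, and the members' median was positive under every scaling run.

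Psma6 returned from 22.4 and 0.472 CPM to 477.8 and 737.1 CPM (log2 5.59, SE 1.18, adjusted p = 0.00520). Psmb6 went from 40.6 and 25.5 CPM to 760.9 and 1026 CPM (log2 4.67, SE 1.42, adjusted p = 0.0478). Both genes were higher in each 54PEA library. Psma1, Psmb2, Psma4, Psmc2 and Psmb7 also rose (log2 4.58, 4.41, 3.61, 3.29 and 3.22), and Psmd10 fell from 12.4 and 8.97 CPM to 0 and 0.267 CPM (log2 -6.12, SE 1.71, adjusted p = 0.0327), a call lost under 12 of the alternatives. The call of Psmb6 was lost under 6, among them every fit without 1 of the 4 libraries compared, and that of Psma6 under 2. The number of calls at this step moved with single libraries: without 1 library the count was 0 (second WT-54PEA library), 2 (first WT-33PEA library), 4 (first WT-54PEA library) or 5 (second WT-33PEA or second KO-GV library), and it was 14 without either KO-54PEA library. Under ERCC scaling no member was called, beside 1 of 17294 genes. The members' median was then 2.86 against 0.87 over all genes, with 18 members and 3308 genes at an unadjusted p under 0.05.

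**Figure D4:**
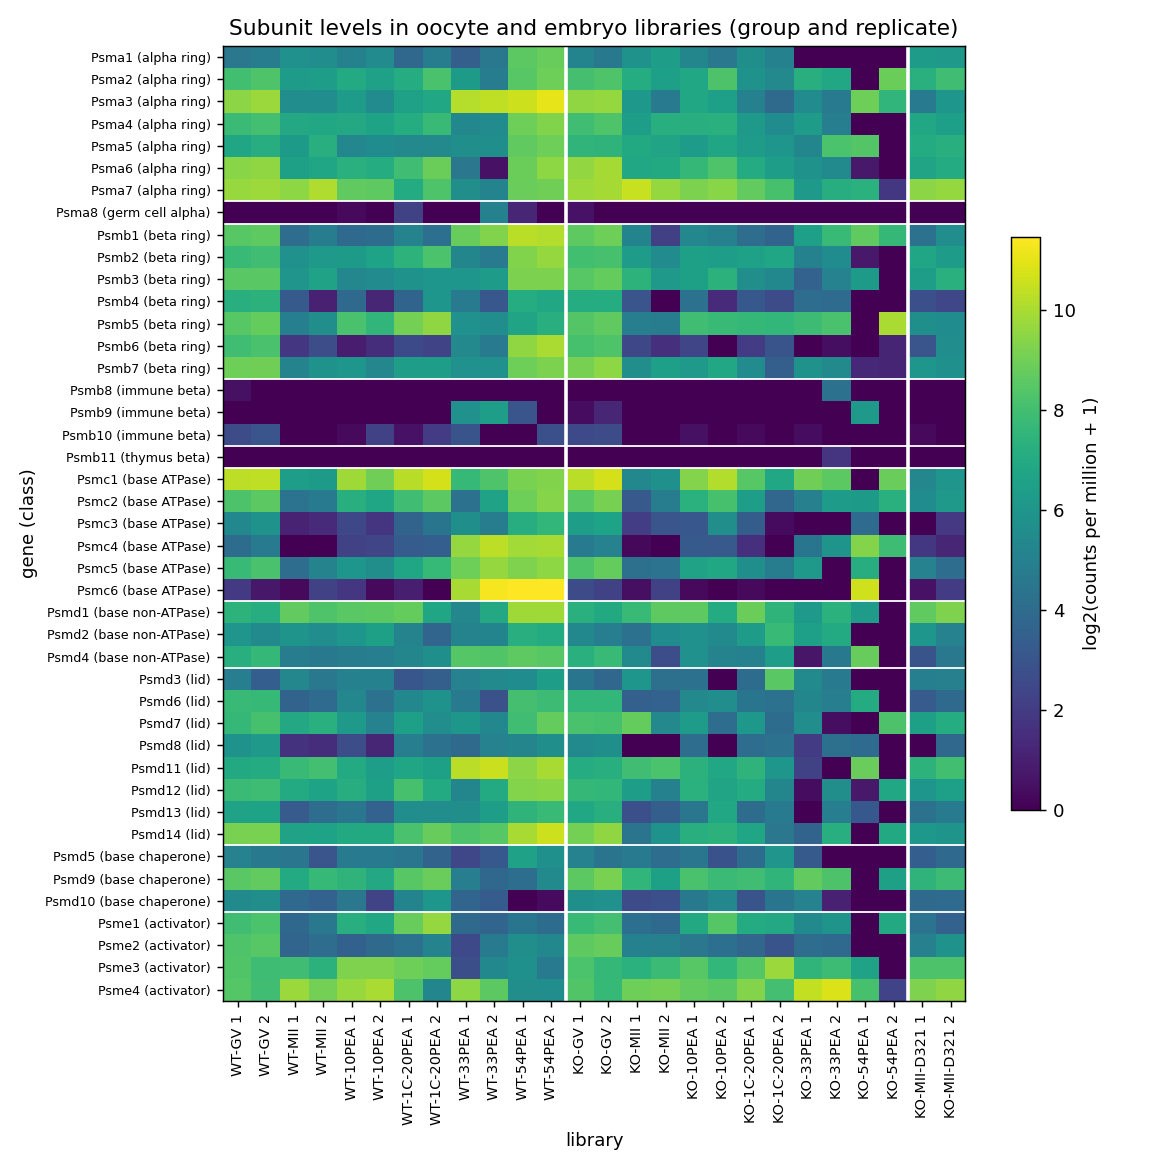
Level of each of the 43 genes, log2(CPM + 1), in the 26 oocyte and embryo libraries; rows are genes by class and columns are libraries by genotype and stage. Psmc6 is at most 3.63 CPM before 33PEA in WT, and 20 and 27 of the 43 genes are at 0 in the 2 KO-54PEA libraries.

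Comparing KO with WT in GV oocytes, MII oocytes, 10PEA and 1C-20PEA embryos, edgeR called no member and no gene. At an unadjusted p under 0.05 there were 0, 1, 0 and 5 members and 28, 707, 266 and 1048 genes. DESeq2 called 0 members at the first 3, beside 15, 231 and 93 of 23521 genes, and 5 at 1C-20PEA, beside 584. At GV the summed level was 10990 and 13090 CPM in KO and 10480 and 11320 CPM in WT, with overlapping libraries. The members' median log2 change was 0.16 at GV, -0.11 at MII, 0.78 at 10PEA and -1.08 at 1C-20PEA. The medians over all genes were 0.00, -0.11, 0.00 and 0.00. ERCC scaling turned the members' GV value to -0.41, beside -0.50 over all genes, and at MII the scalings gave both signs. The members' medians at 10PEA and 1C-20PEA kept their sign under every scaling. With ERCC scaling that at 1C-20PEA was -0.10, beside 0.26 over all genes. At 1C-20PEA the median was -1.20 in the core rings and -2.13 in the ATPases, beside 0.00 over all genes. Psme1 was at 131.5 and 118.4 CPM in KO against 441.6 and 803.2 CPM in WT (log2 -2.13, SE 1.20, adjusted p = 0.769).

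At 33PEA 8 members were called, 7 lower and 1 higher in KO, beside 4.46% of all genes lower and 5.66% higher (10.1% in either direction). The 7 lower genes comprised the ATPases Psmc6, Psmc3 and Psmc4, the core genes Psma1, Psma3 and Psmb6, and the lid gene Psmd11. Psmc6, Psmc4 and Psma3 had risen in WT at the step before; the comparisons share the WT-33PEA libraries, so their values are set side by side and not counted against each other.

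Psmc6 was at 988.6 and 2500 CPM in WT and had 0 counts in both KO libraries, at least 7227-fold lower (fitted log2 -16.44, SE 3.47, adjusted p = 0.00762). Psma3 was at 1158 and 1313 CPM in WT and 45.3 and 26.3 CPM in KO (log2 -5.08, SE 0.90, adjusted p = 0.00287). Psmd11, a lid subunit that ties lid to core, was at 1224 and 1476 CPM in WT and 3.59 and 0 CPM in KO (log2 -9.49, SE 2.02, adjusted p = 0.00767). In these genes the KO libraries were far below the WT libraries. Psmc4 was at 801.1 and 1280 CPM against 21.1 and 60.7 CPM (log2 -4.64, SE 1.23, adjusted p = 0.0238), and the KO libraries of 1C-20PEA were at 1.98 and 0 CPM. Psmc3 and Psma1, at lower WT levels, had no count in either KO library: at least 164.5-fold lower for Psmc3, from 51.1 and 28.3 CPM, and at least 69.1-fold lower for Psma1, from 9.98 and 23.4 CPM (adjusted p = 0.0189 and 0.00129). The calls of Psmc3 and Psmc4 were lost without either KO-33PEA library, that of Psmc4 also without the second WT-33PEA library, and that of Psmb6 without the first KO-33PEA library. ERCC scaling kept those of Psmc6, Psmc3 and Psmd11 and lost the other 5. Psmb6 had 2 counts in the 2 KO libraries, against 344 in WT (adjusted p = 0.0121).

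Other members did not follow this pattern at 33PEA. Psmd9, the base chaperone, was higher in KO, at 419.5 and 310.8 CPM against 29.1 and 13.2 CPM (log2 4.10, SE 1.27, adjusted p = 0.0434); in WT it had fallen from 362.1 and 459.2 CPM at 1C-20PEA, and in KO it had been at 246.7 and 181.8 CPM. Its call was lost under 7 alternatives, among them every fit without 1 of the 4 libraries compared. Both KO libraries were above both WT libraries for 11 members and below for 14, beside 20.2% and 20.8% of all genes. Psme1, Psme3 and Psme4 were among the 11, with Psme4 at 1381 and 1862 CPM against 729.9 and 379.9 CPM (log2 1.54, SE 1.10, adjusted p = 0.355). The median log2 change was -4.11 in the base, -1.43 in the lid, 0.12 in the core rings and 1.74 in the activators. Within the base it was -4.38 in the ATPases and 0.57 in the other base subunits. Oocyte markers summed to 4545 to 5317 CPM in KO-33PEA and 1116 to 1141 CPM in WT-33PEA, and their part was not tested. A fit of the 4 libraries of 33PEA alone called no gene, with 13 members and 2966 of 9266 genes at an unadjusted p under 0.05. ERCC scaling called 3 members, beside 71 of 17294 genes. The fit without both KO-54PEA libraries called 15 members, beside 3390 of 17058 genes.

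**Figure D5:**
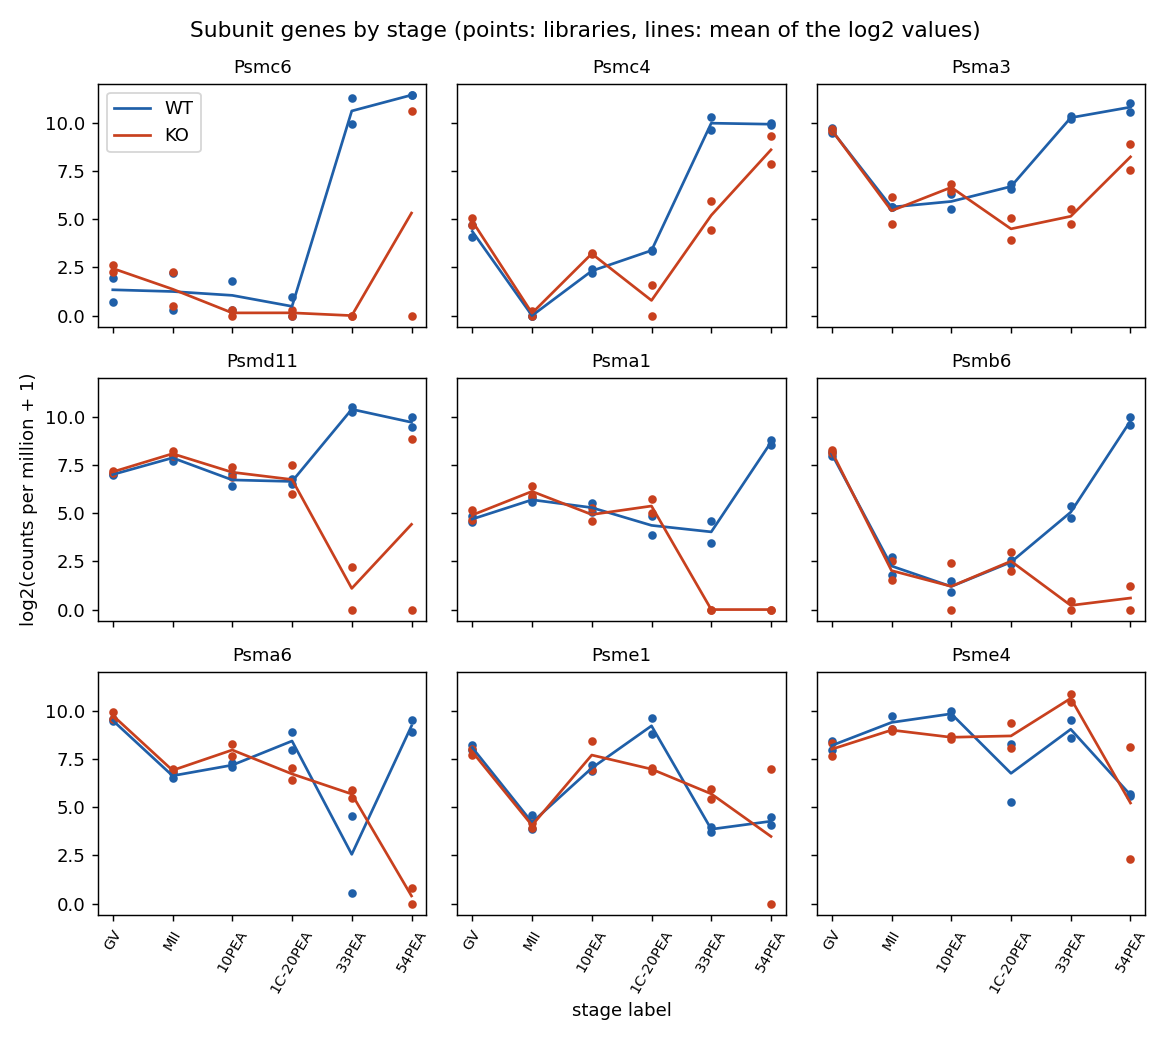
Level by stage, log2(CPM + 1), of 9 members in WT (blue) and KO (red); points are libraries and lines join the means of the log2 values. Psmc6, Psma3 and Psmd11 are high in WT at 33PEA and low in KO, whereas Psme1 and Psme4 are higher in the KO libraries there.

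At 54PEA 18 members fell in KO and none rose, beside 16.9% of all genes lower and 4.04% higher (20.9% in either direction). Both KO libraries were below both WT libraries for 29 members, beside 35.2% of all genes, and above them for none (5.66% of all genes). By class the calls took in 9 of 14 core genes, 3 of 9 base genes and 4 of 8 lid genes, the chaperone Psmd5 and the activator Psme2. The members' median was -3.18 against -1.07 over all genes. It was -2.94 with members at 0 counts in KO set to their bound and Psmd10, with no more than 3 counts in either group, left out. ERCC scaling gave -7.52 against -5.05. It called 36 members lower, beside 7445 of 17294 genes called in either direction (3620 in the main fit). These values rest on the 2 libraries in which 23 and 16 of the 43 genes were counted at all; the spike-in share moves with the result, as do oocyte markers (607.6 to 2446 CPM in KO and 85.3 to 116.2 CPM in WT), and their part was not tested. Without the first KO-54PEA library 29 members were called, and a fit of the 4 libraries of 54PEA alone called 11.

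Psma4, in the alpha ring, was at 485.7 and 616.4 CPM in WT-54PEA and had 0 counts in both KO libraries, at least 789.7-fold lower (adjusted p = 6.11e-06). Psma1 was at 374.8 and 447.6 CPM in WT and at 0 in KO, at least 589.3-fold lower (adjusted p = 1.06e-05). Psmd2 was at 146.4 and 130.2 CPM and Psmb4 at 137.2 and 114.7 CPM in WT, both at 0 in KO (at least 198.2-fold and 180.5-fold lower). All of these had been counted in both KO-33PEA libraries except Psma1. Other genes were high in 1 KO library. Psmc6 was at 1597 and 0 CPM in KO against 2824 and 2748 CPM in WT (log2 -2.14, SE 1.82, adjusted p = 0.436). Psmb5 was at 0 and 1039 CPM against 102.2 and 145.3 CPM (log2 0.91, SE 1.28, adjusted p = 0.735). Psmc4 was counted in both, at 638.8 and 235.7 CPM against 942.1 and 1011 CPM. The KO libraries thus differed from each other in which members they held.

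Averaged over the 6 stages, 12 members were lower in KO and none higher, beside 6.24% and 1.69% of all genes (7.93% in either direction). Psma1 (log2 -3.74, SE 0.47, adjusted p = 0.000128), Psmc6 (log2 -3.71, SE 0.94, adjusted p = 0.0172), Psmb6 (log2 -3.01, SE 0.57, adjusted p = 0.00280) and Psmb4 (log2 -2.52, SE 0.74, adjusted p = 0.0377) had the largest changes among the 12. These averages take in fitted values, not bounds, for KO groups at 0 counts. Such groups were 33PEA for Psmc6, 54PEA for Psmb4, and both stages for Psma1. An average change is not a change at every stage. At 1C-20PEA Psma1 was at 51.4 and 31.8 CPM in KO against 13.8 and 27.9 CPM in WT. The call of Psmb4 was lost under 9 alternatives, that of Psmc6 without the first WT-1C-20PEA library, and that of Psmb6 without both KO-54PEA libraries (log2 -1.30, adjusted p = 0.207). With both KO-54PEA libraries left out 4 members were called lower, beside 486 of 17058 genes called in either direction. Of these 4 members, 3 were among the 12, and 4 of the 12 had the opposite sign. The count was 7 without the first KO-GV library and 25 or 20 without the first or second KO-54PEA library. The KO change differed between stages for 13 members (9.40% of all genes), by the F test of the stage terms, 7 of them in the core rings.

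Of the alternative subunits, Psma8 was counted in 5 of the 26 oocyte and embryo libraries, at 31.4 CPM in the second WT-33PEA library and at most 3.79 CPM in the others. Psmb8 was at 0.409 CPM in 1 WT-GV library and 18.5 CPM in 1 KO-33PEA library and at 0 in all other oocyte and embryo libraries, and Psmb11 was at 2.44 CPM in that same KO-33PEA library alone. Psmb10 was at 5.11 and 7.15 CPM in WT-GV and 4.78 and 5.10 CPM in KO-GV, and at no more than 6.88 CPM in any later library. Psmb9 had the stage pattern given above in WT, and in KO the GV libraries had 0.309 and 1.33 CPM; it reached 73.7 CPM in the first KO-54PEA library and 0 in the second, with no count in the stages between (log2 -11.81 at 33PEA, SE 3.90, adjusted p = 0.0683). Its constitutive counterpart Psmb6 was at 247.4 and 292.0 CPM in WT-GV and 2.46 and 5.62 CPM in WT-MII (log2 -5.62, SE 1.49, adjusted p = 0.159).

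Of the related genes, 5 of 36 tested were called at 33PEA (3 higher, 2 lower in KO) and 15 at 54PEA (2 higher, 13 lower), beside 10.1% and 20.9% of all genes. At 33PEA the ubiquitin fusion gene Rps27a was lower in KO (76.4 ± 19.5 against 858.9 ± 87.9 CPM, SD, n = 2; log2 -3.47, adjusted p = 0.0434), and it had risen in WT from 1C-20PEA to 33PEA (log2 4.71), a comparison that shares the WT-33PEA libraries. Psmg1 to Psmg4, the assembly factors of the core, were at 0 in both KO-54PEA libraries and called lower. Akirin2 rose in WT from 33PEA to 54PEA, from 148.0 ± 23.1 to 946.5 ± 143.1 CPM (SD, n = 2; log2 2.61, SE 0.75, adjusted p = 0.0374). The antigen presentation and interferon genes Irf1 and B2m were higher in KO at 54PEA (log2 8.48 and 3.47), Irf1 with a SD of 185.5 around a KO mean of 131.1 CPM.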

How the data were processed

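The authors deposited read counts per gene for 32 long RNA libraries of 64 samples; small RNA files were not used here. Per the submitters' processing notes, Trim Galore, TopHat, STAR 2.7.1a and featureCounts were used, with no role given; the genome build and the treatment of strand are not given in the sources used here. The counts were used as deposited, after 8 lines of 1 table that name no gene were dropped. All 43 symbols matched RefSeq (BCM_Maur_2.0).

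The tests ran in edgeR 4.0.16 under R 4.3.3 (TMM scaling, filterByExpr, quasi-likelihood F test, Benjamini-Hochberg threshold 0.05), in 1 fit of 26 oocyte and embryo libraries (13 groups) and 1 of 6 testis libraries, after a check on simulated data. CPM used gene counts without the 92 ERCC rows. Folds against groups at 0 used a floor of 3 counts over the group, and floors cover counting error only, since reads carry no molecular identifiers. The members and lists were chosen with earlier results of these data known. Named were the alternative subunits with their counterparts and, per comparison, up to 4 called members each way (2 for WT steps) with a mean of at least 5 CPM; members and related genes named beyond that were chosen after their values were seen. Alternatives were other scalings, no filter, DESeq2 1.42.0, a replicate block, single stages and left-out libraries. Some related genes are not reported here.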

Additional observations from a re-analysis of the deposited data

Results flagged for a closer look

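The KO change differed between the 6 stages for 13 members by the F test of the stage terms in edgeR's quasi-likelihood fit. The adjusted p-values were 0.000157 for Psma1, 0.000161 for Psma4, 0.000262 for Psmb2, 0.000407 for Psmb7, 0.000476 for Psmd2, 0.00109 for Psma6, 0.00209 for Psme2, 0.00240 for Psmb6, 0.00801 for Psma3, 0.0282 for Psmd3, 0.0303 for Psmc3, 0.0491 for Psmd11 and 0.0498 for Psmd5. For Psma4 the 2 KO libraries were at 85.5 and 147.1 CPM at MII, beside 120.4 and 116.2 CPM in WT, and at 0 at 54PEA, beside 485.7 and 616.4 CPM. For Psmd3 a single KO library stands out at 1C-20PEA, at 364.8 CPM beside 15.6 CPM in the other. The test includes the KO-54PEA libraries, and without both of them 707 of 17058 genes were called. Among these were 5 of the 13 members (Psma1, Psma3, Psmb6, Psmc3 and Psmd11) and 3 other members (Psmc4, Psmc6 and Psmd9). The calls of Psma4 and Psmd3 were among those lost.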

How the results depend on the processing

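Counts over all genes, in either direction, moved with the settings too. At 33PEA 1750 genes called became 71 (ERCC), 4698 (DESeq2), 0 (stage only) and 3390 (without both KO-54PEA libraries). At 54PEA 3620 became 7445 (ERCC) and 3078 (stage only). For the average 1372 became 2143 (ERCC). From GV to MII 35 became 1 (ERCC) and 1025 (DESeq2). From 33PEA to 54PEA 1224 became 1 (ERCC) and 3224 (DESeq2). The counts that follow are of called members. In testis 17 became 7 to 17 when a library was left out. At GV, MII, 10PEA and 1C-20PEA KO against WT stayed at 0 in every fit except DESeq2 at 1C-20PEA (5). At 33PEA 8 became 3 (ERCC scaling), 13 (DESeq2), 0 (stage only), 15 (without both KO-54PEA libraries, chosen after the data were seen) and 6 to 15 with a library left out; at 54PEA 18 became 36 (ERCC), 11 (stage only) and 16 to 29. The average of 12 became 20 (ERCC), 4 (without KO-54PEA) and 7 to 25, and the 13 stage differences 20 (ERCC), 23 (no filter), 20 (DESeq2), 8 (without KO-54PEA) and 11 to 29 (29 and 26 without the first or second KO-54PEA library). GV to MII, 1 call, gave 2 (RLE), 3 (library size only), 0 (ERCC), 2 (no filter), 14 (DESeq2), 11 (without KO-54PEA) and 0 to 10. MII to 10PEA gave 1 (no filter), 1 (DESeq2) and otherwise 0, and 10PEA to 1C-20PEA 0 throughout. From 1C-20PEA to 33PEA 11 became 7 (ERCC), 17 (without KO-54PEA) and 5 to 17; from 33PEA to 54PEA 8 became 0 (ERCC), 15 (without KO-54PEA), 15 (DESeq2) and 0 to 14. The summed level per ERCC count gave log2 -2.86 for WT-54PEA over WT-GV (0.88 in CPM), -3.31 for WT-MII over WT-GV (-1.44) and -7.21 for KO-54PEA over WT-54PEA (-2.15). The cause of these differences was not tested. WT and KO libraries with the same replicate number were not treated as pairs. Correlations of their deviations were 0.169 at GV, -0.0348 at MII, 0.053 at 10PEA, 0.0942 at 1C-20PEA, 0.107 at 33PEA and 0.000511 at 54PEA. In testis they were -0.031, 0.0285 and -0.0686. The ERCC share was higher in replicate 2 of both genotypes at MII, 10PEA and 1C-20PEA. At 33PEA it was higher in replicate 1 of both, and at GV and 54PEA the genotypes differed. Whether same-numbered libraries shared a batch was not tested. A replicate block left 15 testis calls (Psmc2 and Psmd10 lost) and 7 from 33PEA to 54PEA (Psmb6 lost). With 2 libraries a stage and a dispersion of 1.072, single calls in oocytes and embryos are imprecise, and an uncalled member is not shown to be equal.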

Other observations

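The 2 KO MII oocyte libraries labelled D321 entered no comparison, because the label is not explained. Their subunit genes summed to 3867 and 4813 CPM, beside the 3925 and 4113 CPM of WT-MII and the 4520 and 3566 CPM of KO-MII. Psmd1, a base scaffold subunit, was at 410.3 and 603.8 CPM in D321, beside 415.4 and 310.9 CPM in WT-MII and 218.4 and 392.4 CPM in KO-MII. Psmb6 was at 7.04 and 48.6 CPM in D321, beside 2.46 and 5.62 CPM in WT-MII and 4.65 and 1.92 CPM in KO-MII. Both D321 libraries were above both WT-MII libraries for 10 members and below them for 4. Against KO-MII they were above for 12 and below for 3. The shares over all genes were not computed, so these counts are not read as a result.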
